A study of Mus musculus with 27 samples.

Results

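Cells that die by apoptosis are cleared by neighbours and by macrophages that bind them through dedicated receptors, either directly or through soluble bridging proteins. Here, 10 genes of this machinery were examined in mouse embryonic fibroblasts (MEFs) that were being reprogrammed to induced neurons (iNs): the receptor tyrosine kinases Axl, Mertk, and Tyro3 (the TAM receptors), their ligands Gas6 and Pros1, the bridge Mfge8, the receptors Timd4, Stab1, and Lrp1, and the engulfment receptor Megf10. The rows of the expression table with these 10 gene names were taken out of 54532 genes, and all 10 names were found once. Of the 10 genes, 9 passed the filter on low values (a mean of at least 0.5 FPKM over all libraries) and were among the 14932 genes tested, whereas Timd4 did not pass and is described by its fragments only.

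The libraries came from MEFs of 3 genotypes, wild type (WT), Per1-/-, and Per2-/-, on days 0, 2, and 4 of iN reprogramming, with 3 biological replicates of each genotype and day and 27 libraries in all. The cells of all groups carried lentiviruses for neuronal transcription factors, which doxycycline switches on, and the day 0 cells are those at the time when doxycycline and a serum-free neuronal medium replaced the serum medium. Day 0 against the later days therefore sets both these factors and the medium apart, and these cannot be told apart here. The MEFs came from mid-gestation embryos without head and heart, several embryos were pooled in a dish, the sex was not determined, and the Per1 and Per2 alleles were germline tm1Drw knockouts. Such cultures hold other cell types besides fibroblasts, macrophages among them.

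Phosphatidylserine is kept on the inner face of the plasma membrane of living cells and is exposed on dying ones, where it serves as the main eat-me signal. Gas6 and protein S (Pros1) carry phosphatidylserine to the TAM receptors, of which Gas6 binds all and Pros1 mainly Tyro3 and Mertk. Mfge8 links it to integrins that contain the alpha V subunit, Timd4 and stabilin 1 (Stab1) bind it directly, and Lrp1 and Megf10 act with calreticulin or complement C1q. Axl is typical of fibroblasts and of activated macrophages, and Mertk, Stab1, and Timd4 are typical of tissue-resident macrophages.

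The transcripts of the targeted genes were checked first. Per1 levels were 3.23 to 4.96 FPKM (fragment counts that the authors divided by gene length and by a denominator per library) in Per1-/- libraries on day 0 and 5.44 to 6.33 in WT libraries, and the log2 difference of -0.50 did not pass the test (adjusted p = 0.771). Per2 went against its label: the libraries labelled Per2-/- held 1.87 to 2.00 FPKM on day 0 against 0.817 to 0.957 in WT libraries, with a log2 fold change of 1.03 (adjusted p = 0.00114), and they were also higher on day 2 (log2 fold change 0.82, adjusted p = 0.0191), a call that was lost in 5 of the 6 fits that left out a library, all but that without WT replicate 2. The values cover the whole gene, not the deleted exons, so they neither check the knockouts nor settle the labels, and these cells are called libraries labelled Per2-/- throughout. At the protein level, the paper reports that western blots of the MEFs verified the loss of PER1 in Per1-/- and of PER2 in Per2-/- cells. Depth was 15815013 to 24264097 fragments per library, and the denominators were 86.5% to 92.5% of these totals on day 0 and 103% to 110% on days 2 and 4. Fibroblast markers were abundant in every library, with a summed level of 2307 to 5763 FPKM over 10 genes. One library, Per1-/- replicate 2 of day 0, had a skeletal muscle marker sum of 54.1 FPKM, where the other day 0 libraries had 1.22 to 5.88. Per1-/- replicate 1 was the highest library of its day for Gas6, Lrp1, Pros1, and Megf10 on all 3 days, while on day 0 it was the lowest for Mertk. Results that rest on it are given with and without it.

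The promoters of Axl and Mfge8, which fell, of Gas6, which rose, and of Stab1, which was highest in Per1-/- cells after day 0, are given here so that members that moved differently can be compared. RefSeq promoter windows (GRCm38.p6) were found for 9 of the 10 members, not for Megf10, and the 250 bases before the start of each gene are printed 5' to 3' on the gene's strand. Capitals mark the matches to a GC box (GGGCGG on either strand, read as CCGCCC on the other) and to a TEAD motif (GGAATG, either strand).
Axl, chr7:25788734-25788983, minus strand: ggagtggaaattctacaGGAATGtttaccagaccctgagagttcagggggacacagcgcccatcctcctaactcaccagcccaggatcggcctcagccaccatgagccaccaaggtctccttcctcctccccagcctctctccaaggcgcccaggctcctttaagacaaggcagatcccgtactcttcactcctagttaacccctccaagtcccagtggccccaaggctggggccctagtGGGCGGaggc
Mfge8, chr7:79149061-79149310, minus strand: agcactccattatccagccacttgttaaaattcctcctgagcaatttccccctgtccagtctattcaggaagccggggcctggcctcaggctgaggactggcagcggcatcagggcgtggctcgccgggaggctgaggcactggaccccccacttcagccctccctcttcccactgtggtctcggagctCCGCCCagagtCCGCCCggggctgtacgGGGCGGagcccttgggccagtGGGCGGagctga
Gas6, chr8:13494536-13494785, minus strand: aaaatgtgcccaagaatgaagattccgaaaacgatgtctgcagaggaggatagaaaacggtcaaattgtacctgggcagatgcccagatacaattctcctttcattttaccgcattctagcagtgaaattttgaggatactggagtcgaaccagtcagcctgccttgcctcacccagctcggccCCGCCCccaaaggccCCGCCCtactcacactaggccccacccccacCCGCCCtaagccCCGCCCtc
Stab1, chr14:31168642-31168891, minus strand: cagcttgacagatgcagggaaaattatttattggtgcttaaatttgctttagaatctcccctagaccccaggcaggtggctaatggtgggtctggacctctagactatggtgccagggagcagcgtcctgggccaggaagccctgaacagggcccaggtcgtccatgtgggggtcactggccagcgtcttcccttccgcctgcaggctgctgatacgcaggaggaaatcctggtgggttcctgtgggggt
The GC box was held by 7 of the 9 windows, all but those of Timd4 and Stab1, and by 32.7% of 32851 windows of the same length. Axl had 1 GC box and Mfge8 and Gas6 had 4 each, so the letters did not separate the genes that fell from the one that rose. The TEAD motif was found in the Axl window alone among the members, 233 bases before the start, and in 12.6% of all windows. Neither the circadian E-box (CACGTG, 6.02% of all windows) nor the AP-1 motif (TGANTCA, either strand, 6.75%) was found in any of the 9. In the printed windows the matches do not overlap each other, and a match is a description of the letters only.

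Of the 10 genes, Lrp1 had the highest level per length over the 27 libraries (median 150.2 FPKM), followed by Gas6 (71.6), Axl (52.9), Mfge8 (45.1), and Pros1 (33.2). Stab1 (5.21), Tyro3 (4.99), Mertk (3.22), and Megf10 (1.28) were low, and Timd4 (0.0216) was near 0. The ranges over the libraries overlapped between all neighbours in this order except Megf10 and Timd4.

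**Figure D1:**
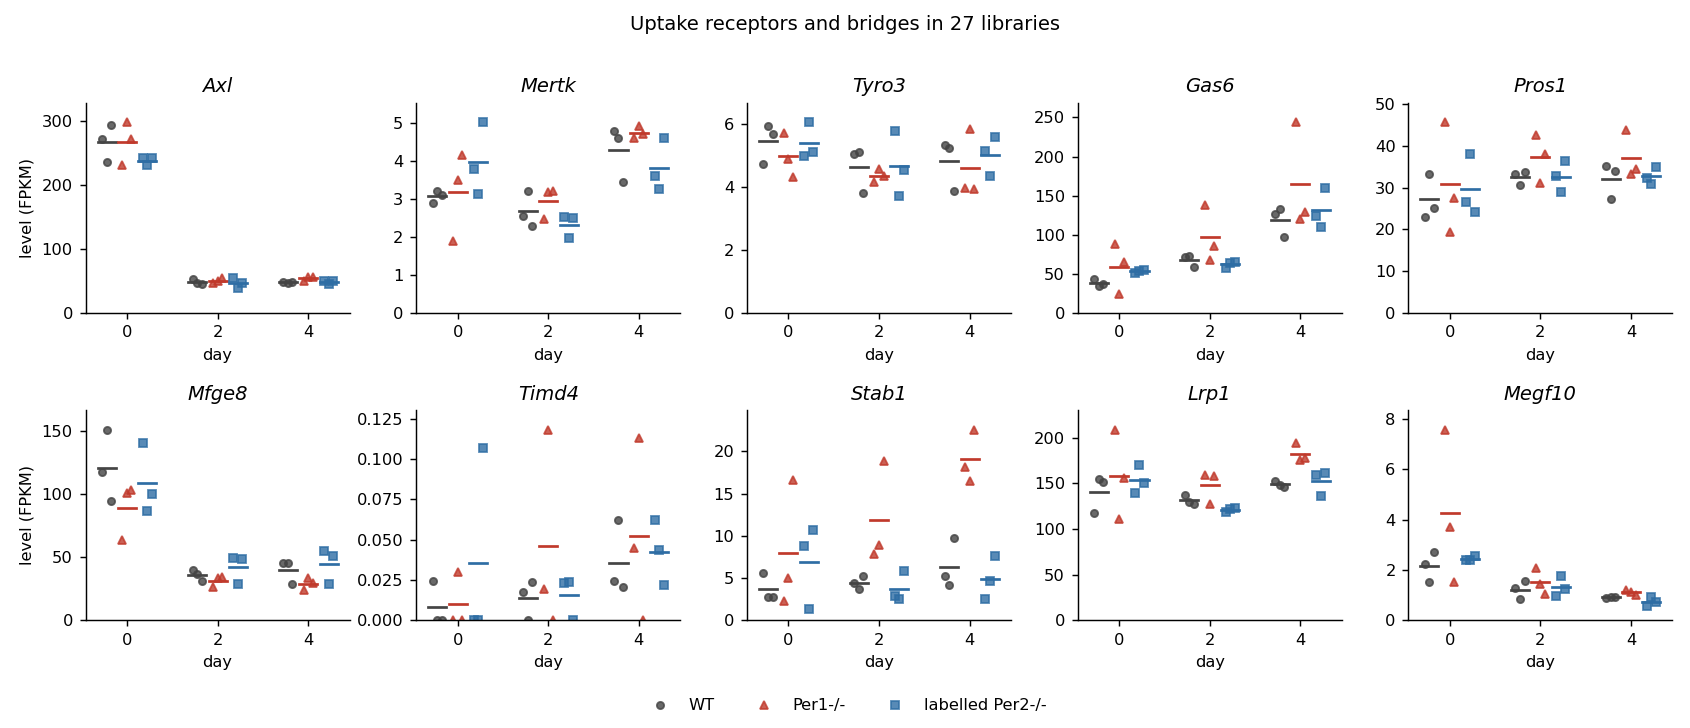
Level of each of the 10 genes in FPKM (vertical axis, from 0, with its own scale in each panel) by day (horizontal axis) in the 27 libraries. Points are libraries (grey circles WT, red triangles Per1-/-, blue squares labelled Per2-/-) and bars are means of 3. Axl and Mfge8 drop after day 0 and Gas6 climbs, and the Per1-/- libraries are the highest for Stab1 on days 2 and 4.

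The first question was how these genes moved as reprogramming began. Axl and Mfge8 fell by day 2 in each genotype and stayed low, Gas6 rose through day 4, and Megf10 fell by day 4, while Tyro3, Pros1, and Lrp1 passed the test in no genotype, although Pros1 did by day 2 in WT (0.71) and Per1-/- cells (0.74) and by day 4 in both (0.65 and 0.62) when FPKM were rescaled to a common sum. That rescaling moved the median log2 change of all tested genes from day 0 from between -0.02 and 0.0045 to between 0.25 and 0.41, and the share of called genes that rose from 51.3% to 53.6% to 71.7% to 81.8%. Under it, the fall of Axl and Mfge8 and the rise of Gas6 by day 4 kept their calls in each genotype, Mertk was also called up by day 4 in WT cells (0.84), and Megf10 no longer was called down there (-0.75). From day 0 to day 4, 1 of the 9 tested members rose and 3 fell in WT cells, 3 rose and 3 fell for Per1-/- cells, and 1 rose and 3 fell in labelled Per2-/- libraries, by limma with Benjamini-Hochberg adjustment over all tested genes and a minimum size of 0.58 in log2. These counts stand beside 43.8%, 43%, and 40.3% of all tested genes called in the same comparisons, so that such shares were common in this experiment. From day 0 to day 2, 3 members were called in WT cells (1 up, 2 down), 4 in Per1-/- cells (1 up, 3 down), and 3 for the label Per2-/- (all down), beside 40.5%, 39.6%, and 35.5% of all tested genes. The median log2 fold change of the 9 members from day 0 to day 4 was 0.09, 0.25, and -0.10 in WT, Per1-/-, and labelled Per2-/- cells, against -0.02, -0.00088, and 0.0045 over all tested genes.

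**Figure D2:**
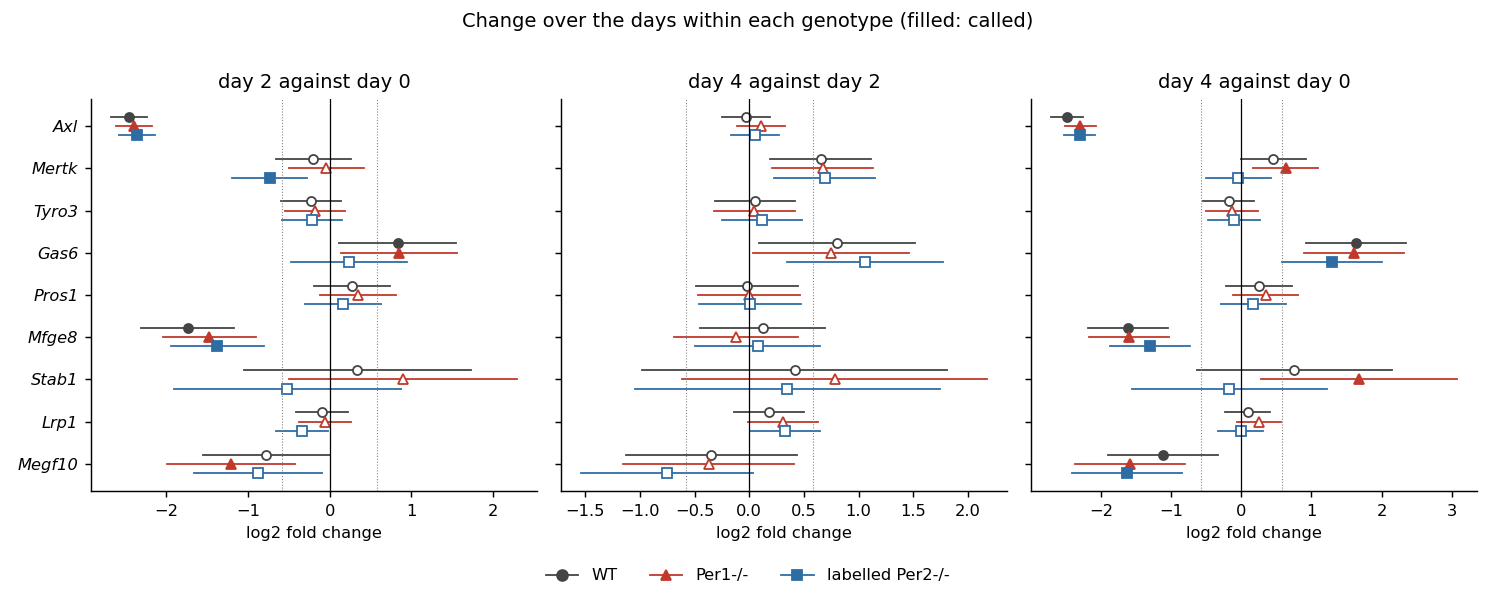
Log2 fold change on the log2(FPKM + 0.1) scale (horizontal axis) of the 9 tested genes (vertical axis) for day 2 against day 0, day 4 against day 2, and day 4 against day 0. Symbols are the genotypes (grey circles WT, red triangles Per1-/-, blue squares labelled Per2-/-), lines are 95% intervals from limma, filled symbols were called, and dotted lines mark 0.58 in size. The Axl intervals lie far below 0 in all 3 genotypes from day 0, and no symbol is filled between days 2 and 4.

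Axl (ENSMUSG00000002602, chr7:25757273-25788705, minus strand) was the most abundant TAM receptor throughout. On day 0 its level was 273, 236, and 294 FPKM in WT replicates 1 to 3, 231, 299, and 272 for Per1-/- cells, and 242, 231, and 242 in labelled Per2-/- libraries. On day 2 it was 52.9, 47.4, and 45.5 in WT cells, 46.7, 50.1, and 54.7 for Per1-/- cells, and 53.8, 39.5, and 47.2 in labelled Per2-/- libraries. On day 4 it was 47.8, 46.7, and 48.4, then 50.3, 56.1, and 56.5, and then 49.6, 44.9, and 50.6 in the same order of genotypes. All 9 day 0 libraries were above all 18 later ones, with no overlap, and the genotypes overlapped on days 0 and 2. On day 4 every Per1-/- library was above every WT library, a difference that was not called, while labelled Per2-/- libraries overlapped both. The log2 fold change from day 0 to day 2 was -2.45 in WT cells (SE 0.11, adjusted p = 4.22e-13), -2.40 in Per1-/- cells (adjusted p = 6.34e-13), and -2.36 in labelled Per2-/- libraries (adjusted p = 1.29e-12). Of the tested genes, 5.04%, 4.76%, and 4.82% had a larger change in size in these comparisons. From day 2 to day 4 Axl differed by -0.03, 0.11, and 0.05 in log2, with none called and signs that turned under the common sum or without 1 library. In bulk libraries, fewer cells of a type and less RNA per cell cannot be told apart. The summed level of the 10 fibroblast markers went the other way, from 2903 to 3497 FPKM in WT cells on day 0 to 4167 to 5763 on day 4, where 7 of the 10 rose and 2 fell. This sum is not a count of cells, and the part of the number of fibroblasts in the level of Axl was not tested.

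Mertk, the TAM receptor best known for clearance by macrophages (ENSMUSG00000014361, chr2:128698956-128802894, plus strand), was low. On day 0 its level was 2.90, 3.22, and 3.12 FPKM in WT cells, 1.88, 3.50, and 4.16 for Per1-/- cells, and 3.78, 3.13, and 5.04 in labelled Per2-/- libraries. On day 2 it was 2.56, 3.20, and 2.30, then 2.47, 3.18, and 3.22, and then 2.52, 1.96, and 2.50. By day 4 the level was 4.80, 4.62, and 3.45, then 4.61, 4.92, and 4.72, and then 3.60, 3.28, and 4.62. Within each genotype every day 4 library was above every day 2 library, while days 0 and 4 overlapped in labelled Per2-/- libraries and did not in WT and Per1-/- cells. The log2 fold change from day 2 to day 4 was 0.65, 0.67, and 0.69 in WT, Per1-/-, and labelled Per2-/- cells, which did not pass the test within a genotype (adjusted p = 0.0931, 0.0902, and 0.0624). With the replicate number as a block, the change passed in WT cells (adjusted p = 0.018) and in Per1-/- cells (adjusted p = 0.0172), where the numbers paired the libraries. Averaged over the genotypes, a comparison chosen after the data were seen, it was 0.67 (SE 0.13, adjusted p = 0.00053). Compared with day 0, Mertk was higher on day 4 in Per1-/- cells (0.63, adjusted p = 0.0169) and lower on day 2 in labelled Per2-/- libraries (-0.73, adjusted p = 0.00788). Both calls rested on 1 library: without Per1-/- replicate 1 of day 0 the former was 0.31 (adjusted p = 0.173), and without labelled Per2-/- replicate 3 of day 0 the latter was -0.56 (adjusted p = 0.0577).

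Tyro3, the TAM receptor best known from neurons (ENSMUSG00000027298, chr2:119797733-119818104, plus strand), stayed between 3.72 and 6.07 FPKM. Its log2 differences from day 0 were -0.18 to -0.23 on day 2 and -0.10 to -0.18 on day 4, none called, and the days overlapped in every genotype. All 6 turned positive (0.11 to 0.21) with FPKM rescaled to a common sum, so no direction is given for Tyro3. The fall of Axl changed the make-up of the TAM receptors. Their summed level was 239 to 307 FPKM on day 0, 45.2 to 62.3 on day 2, and 52.5 to 66.9 on day 4. Axl made up 96.0% to 97.3% of the sum on day 0, 85.1% to 88.2% on day 2, and 82.5% to 86.8% on day 4. The share of Mertk was 0.789% to 2.00% on day 0, 4.05% to 5.75% on day 2, and 6.18% to 8.29% on day 4, with no overlap between days over the 9 libraries of each. No test was run on these shares, which follow from the levels above.

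Gas6, the ligand that all TAM receptors bind (ENSMUSG00000031451, chr8:13465374-13494490, minus strand), rose. On day 0 its level was 43.5, 33.7, and 37.0 FPKM in WT cells, 88.2, 23.5, and 65.3 for Per1-/- cells, and 50.3, 53.2, and 55.2 in labelled Per2-/- libraries. On day 2 it was 71.6, 73.2, and 58.6, then 138, 67.2, and 85.7, and then 58.0, 63.4, and 65.4. On day 4 it was 127, 132, and 96.7, then 244, 121, and 129, and then 124, 110.3, and 160.1. The 3 days did not overlap in WT or labelled Per2-/- libraries, whereas in Per1-/- cells days 0 and 2 overlapped, as did days 2 and 4, replicate 1 being the highest of each day and replicate 2 the lowest of its group. The log2 fold change from day 0 to day 4 was 1.63 in WT cells (SE 0.34, adjusted p = 0.00031), 1.60 in Per1-/- cells (adjusted p = 0.00038), and 1.30 in labelled Per2-/- libraries (adjusted p = 0.00266). In Per1-/- cells it was 1.67 without replicate 1 of all days (adjusted p = 0.00013) and ranged from 1.04 to 1.99 with 1 library left out, called each time, the lowest being without replicate 2 of day 0, the library with the muscle markers.

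The timing of the rise was less certain. By day 2 Gas6 was called in WT cells (0.83, adjusted p = 0.0411) and in Per1-/- cells (0.85, adjusted p = 0.0373) and not in labelled Per2-/- libraries (0.23, adjusted p = 0.583), but no difference between genotypes in this change passed its own test. The day 2 calls were near the threshold in this fit, which does not pair libraries. With the replicate block, whose numbers paired days 0 and 2 in Per1-/- cells, the call in Per1-/- cells was kept. In WT cells the call was lost in 4 of the 6 fits that left out a library, namely without replicate 2 or 3 of day 0 or replicate 1 or 2 of day 2, with changes of 0.75 to 0.82. In Per1-/- cells it was lost without replicate 2 of day 0 (0.29), replicate 1 of day 2 (0.56), or replicate 3 of day 2 (0.91). From day 2 to day 4 the change was 0.80, 0.75, and 1.06 (adjusted p = 0.193, 0.222, and 0.0636), with none of the 9 members called within a genotype beside 3.21%, 2.44%, and 4.06% of all tested genes. Unadjusted p was under 0.05 for 2, 2, and 3 members, and voom weights in limma also called 0. With the replicate block, Gas6 passed in WT cells (adjusted p = 0.015) and in Per1-/- cells (adjusted p = 0.0228), so that 2 members, Gas6 and Mertk, were called in each. The shares of all tested genes just given are from the fit without the block, and those with it are not given here. On the mean of the genotypes, chosen after the data were seen, the change of Gas6 was 0.87 (SE 0.20, adjusted p = 0.00236), and Gas6 and Mertk were the only members called, beside 9.97% of all tested genes. The same averaged comparison called 4 members from day 0 to day 2 (Gas6 up, Axl, Mfge8, and Megf10 down) and the same 4 from day 0 to day 4, beside 42% and 45.6% of all tested genes. The averaged Gas6 change to day 2 (0.64) fell under the fold required without Per1-/- replicate 2 of day 0 (0.45) or Per1-/- replicate 1 of day 2 (0.54).

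The other TAM ligand, Pros1, which also acts in blood as a cofactor of anticoagulant protein C (ENSMUSG00000022912, chr16:62854307-62929346, plus strand), was 19.4 to 45.8 FPKM, both ends being Per1-/- libraries of day 0. Its log2 differences from day 0 were 0.16 to 0.35 on day 2 and 0.17 to 0.35 on day 4, none called. Without Per1-/- replicate 1 of day 0, its change in Per1-/- cells was called to day 2 (0.68, adjusted p = 0.00583) and to day 4 (0.68, adjusted p = 0.00547). Without replicate 1 of all days these changes were 0.57 and 0.55, under the fold required, and neither was called. Gas6 and Pros1 thus moved apart: the ratio of Gas6 to Pros1 was 1.01 to 2.38 on day 0, 1.74 to 3.24 on day 2, and 2.84 to 5.56 on day 4. Gas6 also overtook its receptor. The ratio of Gas6 to Axl was 0.0784 to 0.381 on day 0 (median 0.208), 1.08 to 2.96 on day 2 (median 1.39), and 2.00 to 4.85 on day 4 (median 2.51). Day 0 did not overlap the later days in this ratio, and the highest value of each day was Per1-/- replicate 1.

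**Figure D3:**
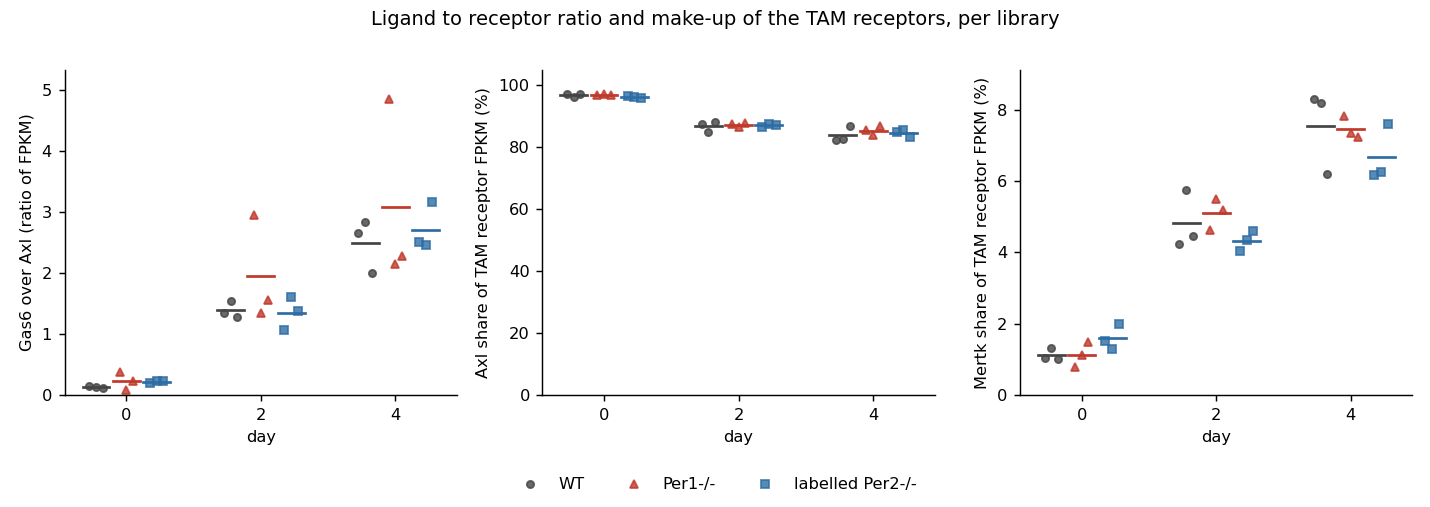
Ratio of Gas6 to Axl FPKM, Axl share, and Mertk share of the summed TAM receptor FPKM in percent (vertical axes, from 0) by day (horizontal axis). Points are the 27 libraries (grey circles WT, red triangles Per1-/-, blue squares labelled Per2-/-) and bars are means of 3. The ratio is at most 0.381 in the day 0 libraries and at least 1.08 in the later ones, and the Mertk share goes up as the Axl share goes down.

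Mfge8, a secreted bridge between phosphatidylserine and integrins (ENSMUSG00000030605, chr7:79133768-79149060, minus strand), fell along with Axl. On day 0 its level was 117, 151, and 94.1 FPKM in WT cells, 63.7, 100.4, and 103 for Per1-/- cells, and 140.2, 86.3, and 99.5 in labelled Per2-/- libraries. The day 2 levels were 39.6, 36.7, and 30.7, then 26.3, 33.4, and 34.6, and then 49.6, 28.5, and 48.4. The day 4 levels were 45.0, 45.1, and 28.5, then 24.0, 33.6, and 29.4, and then 54.8, 28.6, and 51.2. The lowest day 0 library was above all 18 later libraries, and days 2 and 4 overlapped in every genotype. The log2 fold change from day 0 to day 2 was -1.74 in WT cells (SE 0.27, adjusted p = 1.49e-05), -1.48 in Per1-/- cells (adjusted p = 0.0001), and -1.38 in labelled Per2-/- libraries (adjusted p = 0.00023). From day 0 to day 4 it was -1.61, -1.60, and -1.30 in the same order (adjusted p = 3.23e-05, 3.71e-05, and 0.00036). The integrin subunit Itgav, through which Mfge8 is bound, went the same way, from a mean of 61.1 ± 1.7 FPKM (SD, n = 3) on day 0 to 22.2 ± 0.78 on day 4 in WT cells.

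Stab1, a scavenger receptor of macrophages and sinusoidal endothelium (ENSMUSG00000042286, chr14:31139013-31168641, minus strand), had the widest range of the 9 tested members, 17.3-fold between the lowest and the highest library. On day 0 its level was 5.63, 2.71, and 2.74 FPKM in WT cells, 2.30, 5.06, and 16.7 for Per1-/- cells, and 8.82, 1.30, and 10.6 in labelled Per2-/- libraries. On day 2 it was 4.48, 3.72, and 5.21, then 7.85, 8.89, and 18.8, and then 2.89, 2.51, and 5.79. On day 4 it was 5.20, 4.15, and 9.72, then 18.1, 16.5, and 22.6, and then 2.49, 4.65, and 7.62. The genotypes overlapped on day 0, and on days 2 and 4 every Per1-/- library was above every other library of the day. Even so, the log2 difference between Per1-/- and WT cells was 1.29 on day 2 (95% interval -0.10 to 2.68, adjusted p = 0.999) and 1.65 on day 4 (0.26 to 3.05, adjusted p = 0.706), and none was called. Against the libraries labelled Per2-/- it was 1.63 on day 2 (0.23 to 3.02, adjusted p = 0.487) and 2.06 on day 4 (0.66 to 3.45, adjusted p = 0.165).

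Over the days Stab1 was called once, in Per1-/- cells from day 0 to day 4 (1.68, SE 0.67, adjusted p = 0.034), where WT cells had 0.76 (adjusted p = 0.333) and the libraries labelled Per2-/- -0.17 (adjusted p = 0.844), the last ranging from -1.10 to 0.37 with 1 library left out. This call was lost in 5 of the 6 fits that left out a library, all but that without replicate 3 of day 0, and it was 1.03 (adjusted p = 0.204) without replicate 1 of day 0 and 1.06 (adjusted p = 0.261) without replicate 1 of all days. The spread of Stab1 went along with that of the macrophage markers. The summed level of 14 macrophage markers, none of which was at 0 in any library, was 193 to 445 FPKM in WT cells on day 0, 180 to 990 for Per1-/- cells, and 123 to 504 in labelled Per2-/- libraries. On day 4 it was 542 to 977, 1048 to 1978, and 412 to 743 in the same order. The marker sum ranged 16.1-fold over the 27 libraries, and Stab1 per 100 FPKM of it ranged 4.61-fold, from 0.475 to 2.19. The ratio in Per1-/- cells was 1.28 to 1.68, 1.14 to 1.68, and 0.930 to 1.57 on days 0, 2, and 4. The ratio in WT cells was 1.27 to 1.42, 1.11 to 1.36, and 0.673 to 0.994. For labelled Per2-/- libraries it was 1.06 to 2.19, 0.934 to 1.66, and 0.475 to 1.13. The genotypes thus overlapped on each of the 3 days. Daily medians were 1.57, 1.65, and 1.14 for Per1-/- cells, against 1.38, 1.18, and 0.766 for WT cells. Labelled Per2-/- medians were 1.75, 1.56, and 1.03. Only Per1-/- replicate 1 overlapped WT cells, and the other Per1-/- libraries exceeded every WT library of their day. The part of the number of macrophages in the level of Stab1 was not tested.

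**Figure D4:**
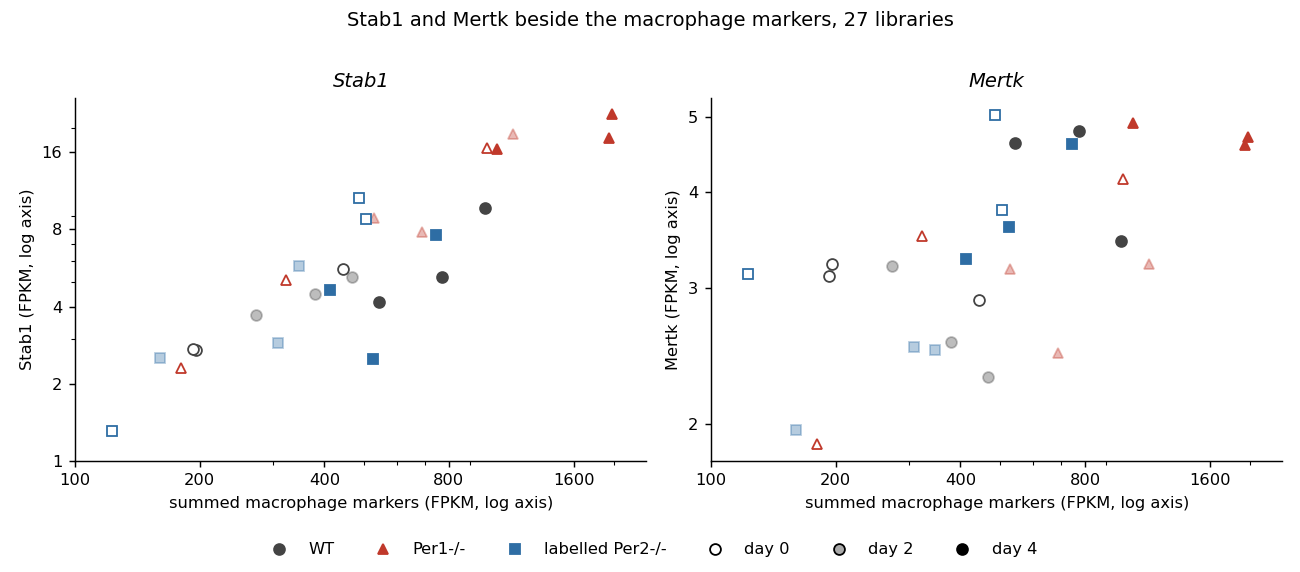
Stab1 (left) and Mertk (right) in FPKM (vertical log axes) against the summed FPKM of 14 macrophage markers (horizontal log axis) in the 27 libraries. Grey circles are WT, red triangles Per1-/-, and blue squares labelled Per2-/-, open on day 0, pale on day 2, and filled on day 4. Stab1 climbs with the marker sum from 1.30 to 22.6 FPKM, and Mertk stays between 1.88 and 5.04 FPKM while the sum ranges 16.1-fold.

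Mertk ranged 2.67-fold in all and 10.8-fold per 100 FPKM of macrophage markers. The marker sum ranged far more than Mertk, 16.1-fold, so dividing by it had to widen the range of Mertk. This widening is therefore not a result about Mertk, while the same division narrowed the range of Stab1. Timd4, a phosphatidylserine receptor of resident macrophages (ENSMUSG00000055546, chr11:46810800-46844332, plus strand), was hardly detected. It had 33 fragments in the 27 libraries together, at most 5 in 1 library, and 0 in 10 libraries. A count of 0 allows up to 3 fragments, which is 0.0606 to 0.0935 FPKM in those libraries, for counting error only. By genotype and over all days there were 8 fragments in WT cells, 13 for Per1-/- cells, and 12 in labelled Per2-/- libraries, too few to compare.

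Lrp1, a large endocytic receptor for many ligands besides apoptotic cells (ENSMUSG00000040249, chr10:127538161-127621148, minus strand), was the most abundant of the 10 genes in the median and was nearly flat. Its level was 111 to 209 FPKM on day 0, 119 to 159 on day 2, and 136 to 194 on day 4, where the highest library of each of the 3 days was Per1-/- replicate 1. The log2 differences from day 0 to day 4 were 0.09, 0.25, and -0.0083 in WT, Per1-/-, and labelled Per2-/- cells, none called, and the last was 0.24 under the common sum. In Per1-/- cells the difference was 0.43 without replicate 1 of all days (adjusted p = 0.0189, under the fold required), and it ranged from 0.019 without replicate 2 of day 0 to 0.48 without replicate 1 of day 0. From day 2 to day 4 the averaged change, chosen after the data were seen, had an adjusted p of 0.0247 with a log2 fold change of 0.27, which is under the fold required. On day 4 the Per1-/- libraries (194, 176, and 178 FPKM) were above the WT (153, 148, and 146) and labelled Per2-/- libraries (159.6, 136, and 162), with log2 differences of 0.29 (95% interval -0.02 to 0.61, adjusted p = 0.857) and 0.26 (-0.05 to 0.58, adjusted p = 0.497).

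Megf10, an engulfment receptor best known from glia and muscle satellite cells (ENSMUSG00000024593), fell from a low level. On day 0 it was 2.24, 1.53, and 2.71 FPKM in WT cells, 7.59, 3.71, and 1.54 for Per1-/- cells, and 2.38, 2.40, and 2.57 in labelled Per2-/- libraries. The day 2 levels were 1.28, 0.832, and 1.57, then 2.07, 1.46, and 1.05, and then 0.955, 1.77, and 1.25. The day 4 levels were 0.874, 0.943, and 0.924, then 1.22, 1.13, and 1.01, and then 0.558, 0.933, and 0.725. All 9 day 4 libraries were below all 9 day 0 libraries, and the high value of Per1-/- replicate 1 on day 0 made that group the most variable. The log2 fold change from day 0 to day 4 was -1.12 in WT cells (SE 0.38, adjusted p = 0.0133), -1.58 in Per1-/- cells (adjusted p = 0.00105), and -1.63 in labelled Per2-/- libraries (adjusted p = 0.00087). Without Per1-/- replicate 1 of all days the change in Per1-/- cells was -1.10 (adjusted p = 0.0145), without that of day 0 alone it was -1.04 and still called, and without WT replicate 3 of day 0 the change in WT cells was -0.95 and no longer called (adjusted p = 0.0604). By day 2 it was called in Per1-/- cells (-1.21, adjusted p = 0.00906) and not in WT cells (-0.77, adjusted p = 0.0817) or the libraries labelled Per2-/- (-0.88, adjusted p = 0.0535). Without Per1-/- replicate 1 of day 0 that call was lost as well (-0.67, adjusted p = 0.0933), as it was without replicate 3 of day 2 (-0.98, adjusted p = 0.0515). With the replicate block it was kept.

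The next question was whether the genotypes differed on a given day. None of the 9 tested members was called in any of the 9 comparisons between genotypes. At an unadjusted p under 0.05 there was 1 member for Per1-/- against labelled Per2-/- on day 2 (Stab1), 1 for Per1-/- against WT on day 4 (Stab1), 2 for Per1-/- against labelled Per2-/- on day 4 (Stab1 and Mfge8), and 0 in the other 6 comparisons, and voom weights in limma called 0 as well. Such calls were rare in this fit over all tested genes too. Per1-/- against WT cells gave 0.0134%, 0.0067%, and 0.0268% on days 0, 2, and 4, the libraries labelled Per2-/- against WT cells gave 0.0067%, 0.0268%, and 0.0067%, and Per1-/- cells against the libraries labelled Per2-/- gave 0.0201%, 0.0737%, and 0.556%. The paper tested counts with another method (DESeq2) at the same thresholds. It reports many more genes that differed between Per1-/- cells and both other genotypes on days 2 and 4. Whether that method would call any member was not tested, so the absence of called members holds only for the limma fits used here. Mfge8 was lower in Per1-/- cells than in labelled Per2-/- libraries on day 4 by a log2 difference of -0.59 (95% interval -1.16 to -0.02, adjusted p = 0.359), with overlap at the labelled Per2-/- library of 28.6 FPKM. Comparisons on the same day share their libraries, so they are not independent of each other. The change from day 0 was also compared between genotypes by an interaction term. No member was called in the 4 interaction comparisons (Per1-/- or labelled Per2-/- against WT cells, to day 2 or day 4), with 0 members at an unadjusted p under 0.05, and 0% of all tested genes were called. The 95% intervals were wide for Stab1, whose change to day 4 in Per1-/- cells exceeded that in WT cells by 0.92 (-1.05 to 2.89). This difference was 0.30 without Per1-/- replicate 1 of all days and ranged from 0.27 to 1.67 with 1 library left out. Thus, where a member was called over the days in one genotype and not in another, a difference between the genotypes was not shown.

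The other genes of apoptotic cell uptake were described with 7 lists, of which 62 genes were tested. From day 0 to day 4, 20 rose and 16 fell in WT cells, 22 and 16 did so for Per1-/- cells, and 16 and 16 in labelled Per2-/- libraries. These are 58.1%, 61.3%, and 51.6% of the 62, beside 43.8%, 43%, and 40.3% of all tested genes. Their median log2 fold change was 0.01, 0.11, and -0.05. Between days 2 and 4, 4, 4, and 5 rose and 0 fell, which became 8 in WT and 8 in Per1-/- cells with the replicate block, and 1 to 2, 1 to 4, and 2 to 3 with 1 library left out. Without the block, the background between days 2 and 4 was 3.21%, 2.44%, and 4.06%, against 6.45%, 6.45%, and 8.06% of the 62. The share of all tested genes with the block is not given here, so the counts of 8 have no background beside them. The counts of each list that follow are in WT cells from day 0 to day 4 and stand beside the same 43.8%. Of the 13 other uptake receptors tested, 3 rose and 3 fell in WT cells. Cd300a, an inhibitory phosphatidylserine receptor of myeloid cells, went from 0.521 to 3.50 FPKM (log2 fold change 2.62, adjusted p = 0.00012), and Havcr2, also called Tim-3, fell from 5.20 to 1.17 (-2.03, adjusted p = 1.6e-05). Of the 8 other bridges and opsonins, 4 rose and 3 fell in WT cells. Thbs1, which links dying cells to integrins and Cd36, fell from 1845 ± 67 to 287 ± 9.6 FPKM (SD, n = 3), and Anxa1, which binds phosphatidylserine, from 462 ± 118 to 103 ± 15. Tub, which is described as a ligand of Mertk, was among those that rose (3.36, adjusted p = 9.81e-09), though it reached only 1.31 FPKM. Markers of neurons rose over the same days: 7 of the 8 tested were called up in WT cells with a median log2 fold change of 3.55, and the summed level of the 10 on the list went from 32.4 to 45.2 FPKM on day 0 to 139 to 194 on day 4, none being at 0 in all libraries. The macrophage marker sum of WT cells rose as well, from a mean of 278 FPKM on day 0 to 764 on day 4. The part of neurons or of macrophages in the rise of Cd300a, Tub, or the genes below was not tested. The C1q genes among the bridges and opsonins are macrophage genes too, and C1qa and Cx3cr1 also stand in the list of macrophage markers.

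Of the 15 genes of engulfment signalling, 4 rose and 3 fell in WT cells, and Vav1 (1.89), Vav3 (1.53), and the lipid exporter Abca1 (1.53) were among those that rose. Of the 7 genes that move phosphatidylserine across the membrane, 3 rose and 1 fell. The scramblase gene Xkr4 went from 0.269 to 3.17 FPKM (3.14, adjusted p = 3.86e-07) and the flippase gene Atp8a1 from 0.561 to 3.82 (2.59). Of the 10 genes of find-me and do-not-eat-me signals, 4 rose and 5 fell. Sirpa, the receptor for the do-not-eat-me protein CD47, went from 12.9 to 59.8 FPKM (2.20, adjusted p = 5.9e-07) and the fractalkine receptor Cx3cr1 rose by 2.83 in log2, while the nucleotide receptor P2ry2 fell by 2.26 on the log2 scale. Among 5 nuclear receptors 1 rose and 1 fell, the latter being Ppard (-0.95, and -0.56 and not called under the common sum), and among 4 sheddases and partners 1 rose, Lrpap1, the chaperone of Lrp1 (0.64, and 0.51 and not called without WT replicate 3 of day 0). Between genotypes 2 of the 62 were called, both higher in Per1-/- cells than in labelled Per2-/- libraries on day 4: Abca1 (22.6 ± 2.3 against 12.0 ± 0.95 FPKM, SD, n = 3, log2 difference 0.90, adjusted p = 0.0206) and the integrin gene Itgb3 (6.24 ± 0.61 against 3.54 ± 0.14, 0.80, adjusted p = 0.0342). That is 3.23% of the 62 in this comparison, beside 0.556% of all tested genes. Both calls were lost without Per1-/- replicate 1 of all days (0.84 and 0.72, adjusted p = 0.103 and 0.147), and Itgb3 was also lost in each of the 6 fits that left out a library of these groups and Abca1 in 4 of 6, all but those without replicate 2 of either group. The macrophage marker sum stands beside these as well, 1048 to 1978 FPKM against 412 to 743.

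**Figure D5:**
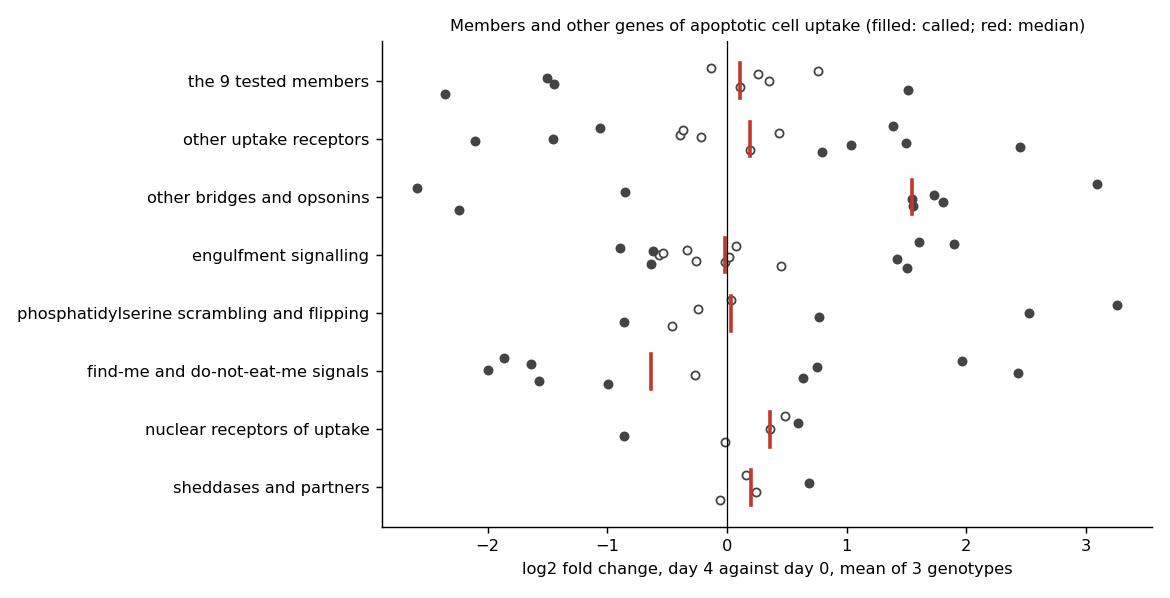
Log2 fold change from day 0 to day 4, averaged over the 3 genotypes (horizontal axis), of the 9 tested members and of the tested genes of 7 lists of apoptotic cell uptake (vertical axis). Each circle is a gene, filled where called, and red bars are medians. Called genes went both ways in each list but the sheddases, and the members lie between -2.36 and 1.51.

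Finally, the genes most like each member were found by Pearson's r of log2(FPKM + 0.1) over the 27 libraries. The libraries share genotype, day, and culture, so r is given as a description. Axl was most like Anxa2 (0.99), Cd44 (0.99), and Msn (0.99), and Mfge8 was most like Fhl1 (0.97), Vim (0.97), and Osbpl3 (0.97). Gas6 was most like Mill2 (0.94), Itm2b (0.92), and Slfn8 (0.92). The genes nearest to Stab1 were Fcgr3 (0.97), Lyz2 (0.92), and Ncf1 (0.91), and Lyz2 is 1 of the macrophage markers. Megf10 had Tcaf2 (0.89), Cdr2l (0.88), and Ugcg (0.86) as its nearest genes. The other tested members had lower values. These were Pros1 with Pnrc1 (0.85), Cers4 (0.84), and Csgalnact1 (0.84), and Lrp1 with Mmp19 (0.84), Ddr2 (0.83), and Golgb1 (0.82). Tyro3 followed with Apln (0.83), Fkbp10 (0.81), and Kirrel (0.80), and Mertk with Slc27a1 (0.80), Cxcl16 (0.79), and Atp6v0d2 (0.78).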

How the data were processed

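Bulk RNA-seq of MEFs in iN reprogramming was processed from 27 libraries in 9 groups, with groups and replicate numbers taken from the sample titles. The authors deposited FPKM for 54532 genes, and these were used unchanged. Per the labels and the paper's methods, poly-A libraries without strand information were aligned to mm10 with HISAT2 2.0.5 and counted with featureCounts 1.5.0-p3, so reads from antisense genes cannot be told apart. The values themselves show that FPKM were divided by a denominator per library other than its summed fragments, whose origin is not given in the sources used here. With the deposited gene lengths, 100% of values gave whole fragments within 0.001.

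The 14932 genes that averaged 0.5 FPKM or more were tested on log2(FPKM + 0.1) with limma 3.58.1 in R 4.3.3 (9 groups, eBayes with trend). Fold changes are on this scale, which understates those of low genes. P-values were adjusted by Benjamini-Hochberg over the tested genes of each comparison, and a call needed an adjusted p up to 0.05 together with a change of 0.58 or more in log2, up or down. The same fit gave the 9 changes over days, 9 differences between genotypes, and 4 interactions. P-values measure the spread between replicate cultures.

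The replicate numbers were checked by the correlation of deviations from group means. All 3 pairs exceeded 0.1 in WT cells between days 2 and 4 (r 0.127 to 0.196) and in Per1-/- cells between days 2 and 4 (0.140 to 0.284) and days 0 and 2 (0.150 to 0.294), where the numbers were taken to pair the libraries, and in no other comparison. The members and gene lists were chosen with earlier results of these data known. All members were named. From each list, at most 3 genes called in the same direction from day 0 to day 4 in all genotypes were named by size of change, with any gene called between genotypes and the 3 genes most like each member, except that some items are not reported here. Alternatives were a pseudocount of 1, a filter at a mean of 1 FPKM or none, FPKM rescaled to a common sum, voom weights on fragments, the replicate block, and each library left out. The method was tested on simulated data. Figures were drawn with matplotlib 3.10.9.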

Additional observations from a re-analysis of the deposited data

How the results depend on the processing

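Counts of called members were within 1.5 times the reported count under all alternatives run, with these exceptions. With the replicate block, 2 members (Gas6 and Mertk) were called between days 2 and 4 in each genotype, against 0 without it. The numbers did not pair the libraries labelled Per2-/- by the rule used, where adjusted p was 0.00239 for Gas6 and 0.0117 for Mertk. The block also called Megf10 from day 0 to day 2 in WT cells (-0.77, adjusted p = 0.0214) and in the libraries labelled Per2-/- (-0.88, adjusted p = 0.0117), and Stab1 from day 0 to day 4 on the mean of the genotypes (0.76, adjusted p = 0.0304), and it lost Per2 in the libraries labelled Per2-/- against WT on day 2 (0.82, adjusted p = 0.055). Of the 62 listed genes it called 8 up between days 2 and 4 in each genotype, and 5 up and 1 down for Per1-/- against labelled Per2-/- on day 4, and it changed no other call given here. The share of all tested genes called with the block is not given here, so its counts have no background beside them. Within a genotype, libraries correlated best with their own number on another day in 48 of 54 cases. A pseudocount of 1 left 1 member called between days 2 and 4 on the mean of the genotypes, and lost Mertk there (0.53) and in both genotypes where it was called from day 0 (0.50 and -0.57), by size. Without a filter, Gas6 by day 2 (adjusted p = 0.0867 in WT cells and 0.0798 in Per1-/- cells) and Stab1 by day 4 in Per1-/- cells (0.0686) were lost. Leaving out 1 library gave 2 to 5 called members in Per1-/- cells from day 0 to day 2, against 4. It also turned the sign of uncalled changes: Lrp1 by day 4 (-0.037 to 0.16 in WT cells, -0.074 to 0.073 in labelled Per2-/- libraries), Stab1 by day 4 in labelled Per2-/- libraries (-1.10 to 0.366), and Axl between days 2 and 4 (-0.073 to 0.035 in WT cells, -0.062 to 0.16 in labelled Per2-/- libraries). Without Per1-/- replicate 1 of all days, Tyro3 by day 4 in Per1-/- cells was 0.062. Between Per1-/- and labelled Per2-/- cells on day 4, a pseudocount of 1 called 4 listed genes up and voom weights 8, against 2, and the common sum 0. Over all tested genes, voom weights called 231 up and 35 down in this comparison, against 66 and 17, so the count rose there too. The counts over all genes for the pseudocount and the common sum are not given here. A pseudocount of 1 also lost Per2 on day 2 (0.58, by size), and no filter or the common sum left 2 listed genes up in WT cells between days 2 and 4, against 4. Of all tested genes, the common sum called 181 up there, against 242, and the count without a filter is not given here.

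With FPKM rescaled to a common sum, whose shift of all genes is given above, several small changes turned sign, none called. Tyro3 became 0.195, 0.21, and 0.105 by day 2 and 0.211, 0.134, and 0.145 by day 4 in WT, Per1-/-, and labelled Per2-/- cells, and 0.16 by day 4 on the mean of the genotypes. Axl between days 2 and 4 became -0.019 in Per1-/- cells, -0.025 in labelled Per2-/- libraries, and -0.035 on the mean. By day 4 in labelled Per2-/- libraries, Lrp1 became 0.242 and Stab1 0.075. Gained were Pros1 by both days in WT and Per1-/- cells and Mertk by day 4 in WT cells, with the values reported. Lost were Megf10 by day 4 in WT cells (adjusted p = 0.101), Megf10 by day 2 in Per1-/- cells (-0.83), Mertk by day 2 in the libraries labelled Per2-/- (-0.41), Ppard by day 4 in WT cells (-0.56), and Abca1 and Itgb3 between genotypes (0.81 and 0.71), and 10 listed genes fell in Per1-/- cells by day 4, against 16. Of all tested genes, 1823 fell in that comparison, against 3043. The cause was not tested. Timd4 is limited by depth, and 3 libraries a group limit Stab1, whose interval on day 4 against WT spans 0.26 to 3.05.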
